A study of Homo sapiens with 6 samples.

Results

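The genes of the vascular endothelial growth factor (VEGF) ligands and their receptors were examined for chromatin regions pulled down with the long noncoding RNA CRLM1 (annotated as LINC01767) in HCT116 cells, an established human colorectal carcinoma line. The set held 9 of the 20033 protein-coding genes annotated, namely the ligand genes VEGFA, VEGFB, VEGFC and PGF, the receptor tyrosine kinase genes FLT1, KDR and FLT4, and the neuropilin genes NRP1 and NRP2. VEGFD, a further ligand gene of the family, was not among the 9 and is counted with the other genes of VEGF biology below. The family was chosen by measured values, namely the score and width of the peak in VEGFA, one of the strongest and widest of these data, so the VEGFA scores and widths below describe the choice and were not tested. A peak was assigned to a gene when it overlapped the gene body or the 50 kb on either side of it by at least 1 bp. By that rule, 28 of the 36781 peak entries on the main chromosomes lay at these genes, forming 23 distinct intervals, and 7 of the 9 genes had an entry in at least 1 list, beside 69.7% of all protein-coding genes.

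ChIRP-seq, the sequencing form of chromatin isolation by RNA purification, captures an RNA from cross-linked chromatin with biotinylated antisense DNA probes and sequences the DNA that comes along. The 6 libraries were 2 replicates each of CRLM1_IP, captured with antisense oligos against CRLM1, of LacZ, pulled down with probes against a bacterial gene that human cells lack, and of Input, the genomic DNA before capture. The cells were HCT116 in every group and no agent other than the probes was named. Each CRLM1_IP replicate was compared by the authors with the Input and with the LacZ library of its own number, which gave 4 peak lists, here named Input_1, LacZ_1, Input_2 and LacZ_2 after the control used. The labels did not say whether the replicates were separate cultures. Each list compares 1 pull-down with 1 control, so no spread between replicates stands behind a score, and the read depth behind it is unknown. Lists of the same replicate share the pull-down library and are not independent of each other.

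VEGF ligands are secreted dimers that bind receptor tyrosine kinases on endothelial cells and drive the growth of blood and lymphatic vessels. VEGFA acts mainly through the kinase encoded by KDR, while FLT1 binds VEGFA, VEGFB and PGF and often acts as a trap for them. VEGFC acts through the kinase encoded by FLT4 in lymphatic endothelium, and the neuropilins are co-receptors that also bind class 3 semaphorins. Colorectal tumour cells secrete VEGFA, which recruits vessels and is a drug target in metastatic colorectal cancer. The exons in the second part of VEGFA are alternatively spliced, and exons 6 and 7 encode basic stretches that bind heparin, so that isoforms lacking them diffuse more freely.

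The 4 lists held 9331 peaks (Input_1), 10310 (LacZ_1), 16777 (Input_2) and 363 (LacZ_2) on the main chromosomes. The score is the peak caller's own, with a scale that the lists do not state, a lowest value of 50.0 to 50.03 and medians of 56.02 to 57.95. Peaks with a score of at least 100 numbered 222, 212, 278 and 2 in that order of lists, and the median width was 389 to 506 bp. The CRLM1 gene itself, on chromosome 1, had a peak in every list, at 56414742-56416221 in replicate 1 and 56414867-56416061 in replicate 2, with scores of 935.57 to 1580.45 and the first or the second rank by score. That locus holds the full 59-base sequence of CRLM1 probes, so its peak checks the capture and includes DNA that the probes can bind directly. The replicates had few peaks in common. In the Input lists, 161 peaks of Input_1 (1.73%) touched a peak of Input_2 and 157 of Input_2 (0.936%) touched one of Input_1, and in the LacZ lists this held for 6 peaks of LacZ_1 (0.0582%) and 6 of LacZ_2 (1.65%).

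The sequences on which the family's results turn lie in VEGFA, VEGFC and KDR. All coordinates are GRCh38, counted from 1, and the letters run 5′ to 3′ on the plus strand of the reference. The peaks in VEGFA began in the intron before exon 5 and ran past exon 7, so the 3 canonical exons under them are shown in capitals with their flanks, the first stretch also holding the base at which the peaks began.
VEGFA exon 5, chr6:43778790-43779009: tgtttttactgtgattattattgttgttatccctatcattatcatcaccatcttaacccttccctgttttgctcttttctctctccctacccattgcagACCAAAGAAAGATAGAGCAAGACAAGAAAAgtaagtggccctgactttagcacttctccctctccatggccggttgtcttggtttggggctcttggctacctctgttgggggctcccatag
VEGFA exon 6, chr6:43780672-43780863: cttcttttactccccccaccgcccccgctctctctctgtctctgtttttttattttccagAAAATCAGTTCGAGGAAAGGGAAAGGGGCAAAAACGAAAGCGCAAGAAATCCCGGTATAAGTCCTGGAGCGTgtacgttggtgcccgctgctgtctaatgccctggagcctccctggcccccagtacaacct
VEGFA exon 7, chr6:43781896-43782147: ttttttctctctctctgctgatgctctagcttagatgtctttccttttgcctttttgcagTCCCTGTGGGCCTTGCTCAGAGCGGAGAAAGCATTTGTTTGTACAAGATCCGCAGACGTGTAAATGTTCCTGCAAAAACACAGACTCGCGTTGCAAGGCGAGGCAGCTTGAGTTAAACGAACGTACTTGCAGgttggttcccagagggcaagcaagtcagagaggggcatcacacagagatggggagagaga
The next stretch lies upstream of VEGFC and holds, in capitals, the bases called in both replicates against Input, the only ones of the family outside VEGFA.
VEGFC upstream, chr4:176827223-176827368: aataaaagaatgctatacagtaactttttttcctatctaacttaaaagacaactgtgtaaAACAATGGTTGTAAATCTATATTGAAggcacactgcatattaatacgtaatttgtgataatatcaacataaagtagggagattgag
The last stretch is the centre of the peak nearest to the start of any of the 9 genes, in the first intron of KDR, with a run of 7 C in capitals.
KDR intron 1, chr4:55124601-55124900: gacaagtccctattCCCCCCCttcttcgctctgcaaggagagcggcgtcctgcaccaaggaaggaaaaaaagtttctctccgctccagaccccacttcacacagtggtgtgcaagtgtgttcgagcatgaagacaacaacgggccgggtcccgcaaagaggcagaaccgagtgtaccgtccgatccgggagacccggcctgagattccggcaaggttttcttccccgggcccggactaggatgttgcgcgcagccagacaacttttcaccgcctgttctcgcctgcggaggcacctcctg

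VEGFA, on chromosome 6 at 43770184-43786487 on the plus strand (ENSG00000112715.26), carried a wide block of signal within its body in 3 of the 4 lists. In Input_1, 2 peaks lay there, at 43778850-43781215 (2366 bp, score 642.78) and at 43781410-43782352 (943 bp, score 116.9). The 2366 bp interval was called in LacZ_1 with the same borders and a score of 675.47. In Input_2, 2 peaks lay there, at 43778848-43780228 (1381 bp, score 868.46) and at 43780501-43782159 (1659 bp, score 487.87). LacZ_2 had no peak in VEGFA, and its nearest peak lay 7900 kb from the gene. The block was thus called against Input in each replicate, and against LacZ in replicate 1 alone. LacZ_2 held far fewer peaks than the other lists, 363 in all.

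The block began at nearly the same base in each replicate. Its first base differed by 2 bp and its last base by 193 bp between the replicate 1 and replicate 2 lists against Input, over a length of 3503 bp and 3312 bp respectively. The caller broke the block at different places, with a gap of 194 bp at 43781216-43781409 in replicate 1 and of 272 bp at 43780229-43780500 in replicate 2. Of the 2366 bp peak of replicate 1, 1379 bp (58.3%) lay under the first peak of replicate 2 and 715 bp (30.2%) under the second. Of the 943 bp peak, 750 bp (79.5%) lay under the second peak of replicate 2. The peaks covered 3309 bp (20.3% of the gene body) in Input_1, 2366 bp (14.5%) in LacZ_1 and 3040 bp (18.6%) in Input_2.

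The block lay inside the gene body, away from the first and the last exon. It began 8666 bp after the gene start in replicate 1 and ended 4135 bp before the gene end. Of the 8 exons of the canonical transcript, exon 5 (43778889-43778918, 30 bp), exon 6 (43780732-43780803, 72 bp) and exon 7 (43781956-43782087, 132 bp) were covered in full in both lists against Input. The LacZ_1 list covered exons 5 and 6 and stopped before exon 7, and exons 1 to 4 and exon 8 had no covered base in any list. Exon 5 has the same borders in 19 of the 26 annotated VEGFA transcripts, exon 7 in 13 and exon 6 in 3, with 8 transcripts holding an exon that overlaps exon 6. Transcripts also differ outside the block, where exon 1 has the same borders in 2 of the 26 and exon 8 in 5. Most of the covered bases were intronic, since canonical exons made up 7.07%, 4.31% and 7.7% of them in Input_1, LacZ_1 and Input_2. Counted over the exons of all transcripts, each with its own borders, the peaks touched 9, 6 and 9 exons in these lists, beside 3, 2 and 3 of the canonical transcript.

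**Figure D1:**
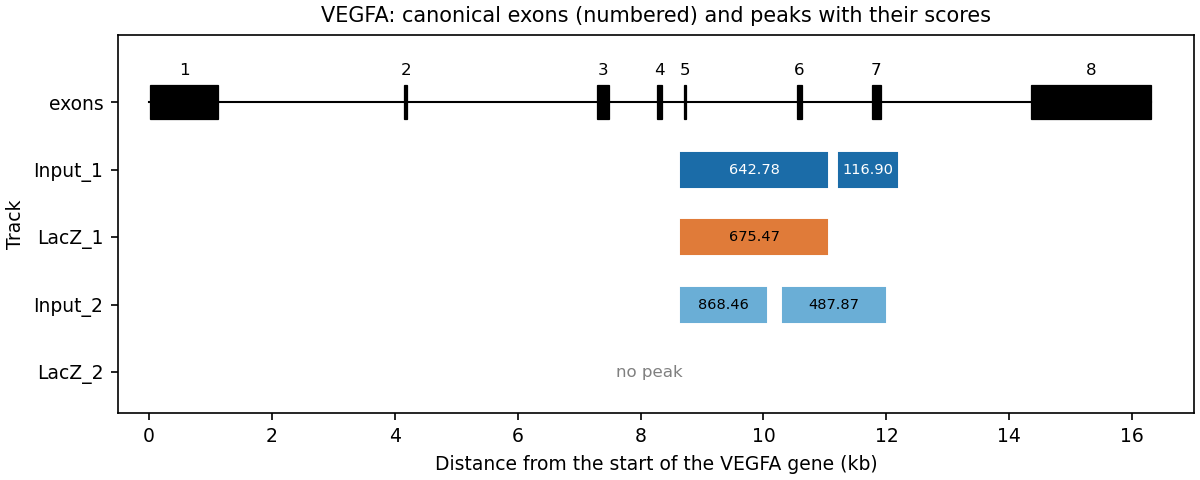
Peaks in the VEGFA gene body in the 4 lists, drawn to scale against the 8 numbered canonical exons, with the distance from the gene start in kb on the horizontal axis, 1 row per list and the peak score inside each bar. The block covers exons 5 to 7 in both lists against Input and exons 5 and 6 in LacZ_1 (score 675.47), and LacZ_2 has no peak in the gene.

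Since VEGFA chose the family, its place among all peaks is given as a description. Its highest score ranked 9 of 9331 peaks in Input_1, 2 of 10310 in LacZ_1 and 4 of 16777 in Input_2. The peak that ranked above it in LacZ_1 was that of the CRLM1 gene (1466.89) and the one below it scored 339.95, and the VEGFA peak was the widest of the list. By width, the 2366 bp interval ranked 16 in Input_1, and the 1659 bp peak ranked 17 in Input_2. Its neighbours in rank scored 705.83 and 595.21 in Input_1, and 1164.51 and 520.11 in Input_2. The second peaks of VEGFA ranked 117 (score 116.9, between 117.02 and 116.46) in replicate 1 and 6 (score 487.87, between 520.11 and 452.76) in replicate 2. Among genes with a peak in the body, VEGFA ranked 4 of 2547, 2 of 3692 and 4 of 4155 by its highest score, but 29, 33 and 96 by the number of bases covered.

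**Figure D2:**
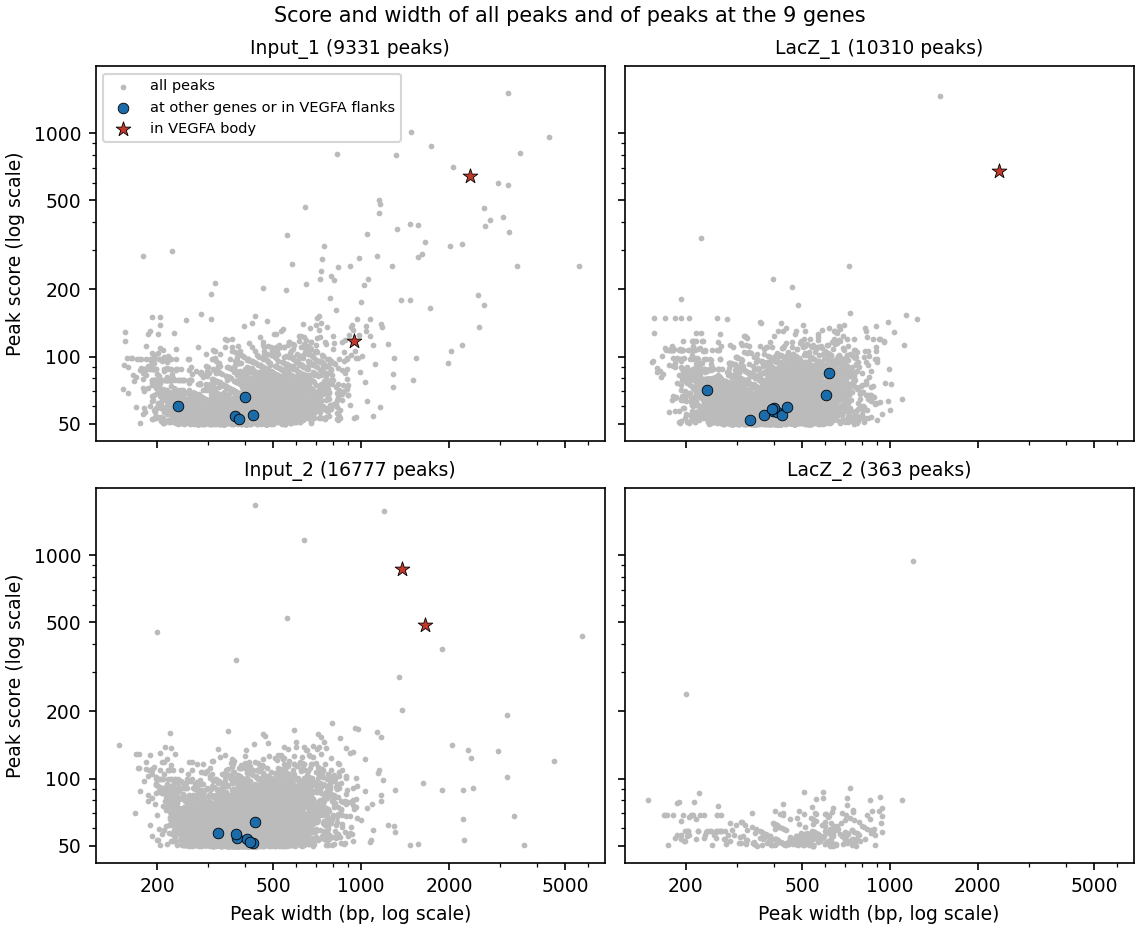
Score against width (bp) of every peak in each of the 4 lists, both axes logarithmic, with peaks in the VEGFA body as red stars and the other peaks at the 9 genes as blue points. The VEGFA stars reach scores of 642.78, 675.47 and 868.46, while every blue point lies between 51.22 and 84.24, the highest being a LacZ_1 peak in NRP1 that ranks 642 of 10310.

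VEGFA also had a weaker peak in each of its flanks, neither called in another list. A LacZ_1 peak of 399 bp lay upstream at 43751208-43751606 (score 56.81), its midpoint 18.78 kb before the gene start. An Input_2 peak of 375 bp lay downstream at 43829254-43829628 (score 53.99), within the long noncoding RNA gene ENSG00000283573. Both scores were near the floor of the lists, in contrast to the block inside the gene.

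The VEGFA block held no long match to the capture probes. The longest exact match of each of the 9 CRLM1 probes to the block, on either strand, was 8 to 11 bases, and that of each of the 21 lacZ probes was 7 to 11 bases, against 59 bases for CRLM1 probes at the CRLM1 gene. The CRLM1 probes with 11 matched bases are shown with those bases in capitals. The first matched the minus strand at 43781940-43781950, just before exon 7, through its bases 47 to 57, and the second the plus strand at 43779394-43779404 through its bases 44 to 54.
CRLM1-2: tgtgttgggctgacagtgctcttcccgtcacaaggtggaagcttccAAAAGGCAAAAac
CRLM1-3: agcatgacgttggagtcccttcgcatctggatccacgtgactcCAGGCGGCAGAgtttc
Over all peaks the median of the longest CRLM1 match was 9 bases, and 8.77%, 9.89%, 9.58% and 11% of the peaks in the 4 lists held a match of 11 bases or more, in peaks mostly shorter than those of VEGFA. The match is a property of the letters and no measure of binding.

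VEGFB, a ligand of FLT1, lies on chromosome 11 at 64234584-64239264 on the plus strand and had peaks in 1 list alone, LacZ_1. The peak at 64237555-64237885 (331 bp, score 52.08, rank 8526 of 10310) overlapped exon 6 of the 7 canonical exons and was the only exonic peak of the family outside VEGFA. The other, at 64253037-64253447 (411 bp, score 56.55), lay downstream in the neighbouring gene PLCB3. The gene was not called against Input in either replicate.

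VEGFC, the lymphatic ligand, lies on chromosome 4 at 176683538-176792922 on the minus strand and was called in the same 3 lists as VEGFA, with much lower scores. In replicate 1, the interval 176746881-176747116 (236 bp) in intron 1 scored 60.17 against Input and 70.51 against LacZ, and the upstream interval 176826881-176827308 (428 bp) scored 54.83 against each. In Input_2, a peak at 176731627-176732032 (406 bp, score 53.54) lay in the same intron, 14849 bp from that of replicate 1, and a peak at 176827283-176827708 (426 bp, score 51.22) lay upstream. The upstream peaks of the replicates shared 26 bp, at 176827283-176827308, which was 6.07% of the replicate 1 peak and 6.1% of the replicate 2 peak. Their midpoints lay 34.17 kb and 34.57 kb before the gene start. The overlap was therefore at the edges of peaks that otherwise covered different bases.

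PGF, the placental growth factor gene, lies on chromosome 14 at 74941834-74955626 on the minus strand and had no peak in its window. Its nearest peaks lay 111 kb, 211 kb, 184 kb and 1640 kb away in the order of the lists. At the density of each list its window would hold 0.361, 0.399, 0.65 and 0.0141 peaks, so its count of 0 was less than 1 peak below that density in every list.

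FLT1, the receptor that traps VEGFA and PGF, lies on chromosome 13 at 28300346-28495145 on the minus strand. Although its body of 195 kb was the longest of the family, no list had a peak in its window, where the density of the lists would give 0.936, 1.03, 1.68 and 0.0364 peaks. The nearest peaks lay 89.6 kb away in both lists of replicate 1, 405 kb away in Input_2 and 4200 kb away in LacZ_2. FLT1 and PGF were the only genes of the 9 without an entry in any list.

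KDR, the main signalling receptor of VEGFA, lies on chromosome 4 at 55078481-55125595 on the minus strand. In replicate 1, an interval downstream of it at 55061850-55062218 (369 bp) scored 54.05 against Input and 54.54 against LacZ and lay within the long noncoding RNA gene ENSG00000250646. A peak upstream at 55137227-55137608 (382 bp, score 52.56) was called against Input alone. In Input_2, the peak lay at 55124535-55124966 (432 bp, score 64.21), in the first intron with its midpoint 0.845 kb after the gene start. This was the peak nearest to a gene start in the family, and it lay 580 bp from the RefSeq promoter window, the 250 bases before to 50 bases after the start. KDR thus counted as called against Input in each replicate, but no base was shared between the replicates, whose nearest peaks were 12261 bp apart.

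FLT4, the receptor of VEGFC on lymphatic vessels, lies on chromosome 5 at 180601506-180649624 on the minus strand and was called in replicate 1 only. The interval 180693572-180693971 (400 bp), upstream of the gene over the olfactory receptor pseudogene OR2AI1P, scored 65.68 against Input and 58.82 against LacZ, its midpoint 44.15 kb before the gene start. Against LacZ alone, a further peak lay in intron 1 at 180636096-180636540 (445 bp, score 59.55).

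The neuropilins had no peak in Input_1, although both had peaks in LacZ_1 and in Input_2. NRP1 lies on chromosome 10 at 33177492-33336262 on the minus strand. Its peak at 33214294-33214909 (616 bp) in intron 8 scored 84.24 in LacZ_1, rank 642 of 10310, which was the highest score and the largest width of the family outside the VEGFA body. A second peak of that list lay in intron 2 at 33313543-33314144 (602 bp, score 67.12), and Input_2 had 1 peak in intron 4 at 33257396-33257811 (416 bp, score 51.76). All 3 NRP1 intervals were intronic and none overlapped another.

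NRP2 lies on chromosome 2 at 205681990-205798133 on the plus strand. LacZ_1 had 1 peak in intron 10 at 205747087-205747481 (395 bp, score 58.52). Input_2 had 2 peaks downstream of the gene, at 205836802-205837125 (324 bp, score 57.15) and 205842114-205842487 (374 bp, score 56.59). The NRP2 body was therefore called in 1 list, and the replicates had no base in common.

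**Figure D3:**
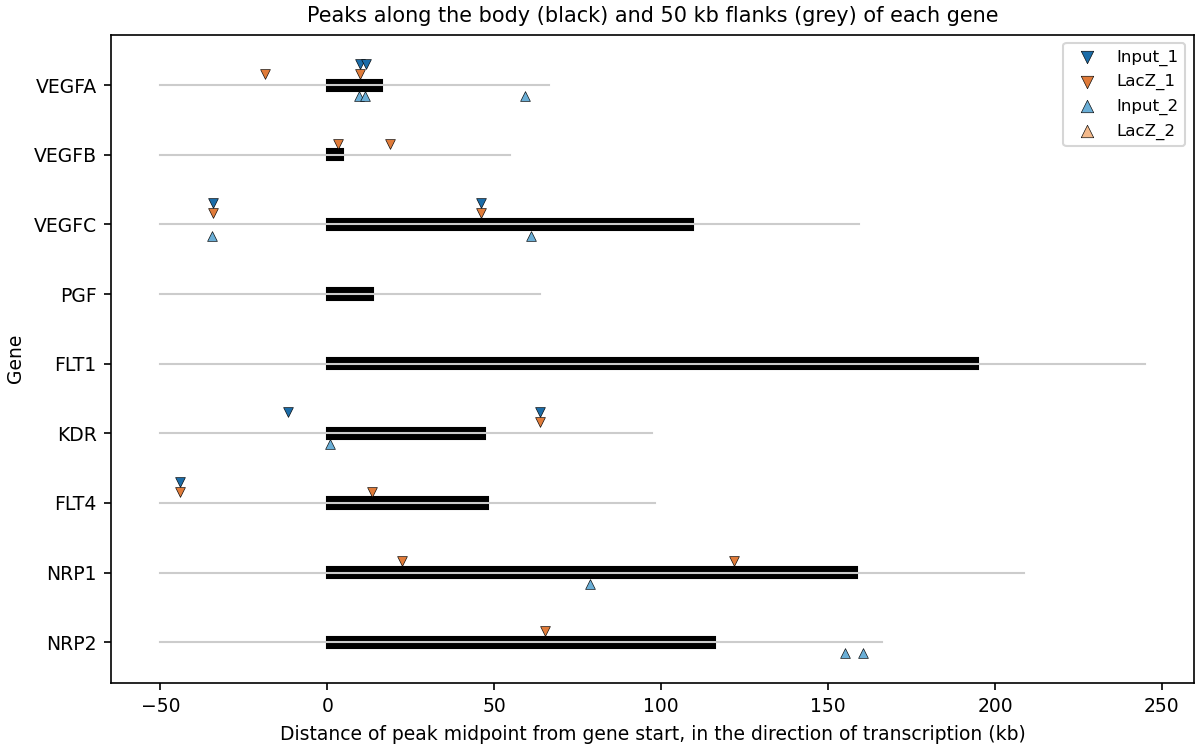
Positions of the peaks at each of the 9 genes, given as the distance of the peak midpoint from the gene start in kb along the direction of transcription, with the gene body as a black bar, the 50 kb flanks as a grey line and 1 triangle per peak and list. VEGFA is the only gene whose body holds overlapping triangles from both replicates, VEGFC has such a pair 34.17 kb and 34.57 kb upstream, and PGF and FLT1 have no triangle.

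The number of genes with a peak was set beside the share of all protein-coding genes called by the same rule. In Input_1 4 of the 9 genes had a peak in the body or flanks, beside 26.3% of all protein-coding genes. In LacZ_1 7 of the 9 had a peak, beside 45.2%. In Input_2 5 of the 9 had a peak, beside 48.0%, and in LacZ_2 none had, beside 2.56%. Within the gene body alone, 2, 6, 4 and 0 of the 9 had a peak, beside 12.7%, 18.4%, 20.7% and 0.968% of all protein-coding genes. With 9 genes, and with VEGFA among them by choice, these counts are descriptions, and neither their difference from the background nor that between the replicates was tested.

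Long genes take more peaks, so the number of peaks was also set against the length of the windows, which summed to 1.61 Mb. The 9 windows held 7, 12, 9 and 0 peaks in the order of the lists, where the density of each list gave 5.11, 5.65, 9.19 and 0.199. The ratio of the density at the family to that of the list was 1.37 in Input_1, 2.12 in LacZ_1 and 0.979 in Input_2. Without VEGFA the ratios were 1.05, 1.91 and 0.704. The ratio against LacZ in replicate 1 thus stayed near its value without the gene that chose the family, and the other ratios came close to or fell below 1. The list density was taken over all ungapped sequence, near genes or not, so 1 need not be the level of gene windows. The ratio over the windows of all protein-coding genes was not computed. By the same window LacZ_1 reached 45.2% of these genes and Input_1 26.3%, from 10310 and 9331 peaks.

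By role, the 4 ligand genes had 4, 6, 5 and 0 peaks in 0.544 Mb (density ratios of 2.31, 3.14, 1.61 and 0), with VEGFA holding 2, 2 and 3 of them. The 3 receptor kinase genes had 3, 3, 1 and 0 peaks in 0.59 Mb (ratios of 1.6, 1.45, 0.297 and 0), and the 2 neuropilin genes had 0, 3, 3 and 0 peaks in 0.475 Mb (ratios of 0, 1.8, 1.11 and 0). The order of the receptor groups changed between the lists, with the kinases ahead in Input_1 and the neuropilins ahead in the next 2 lists.

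**Figure D4:**
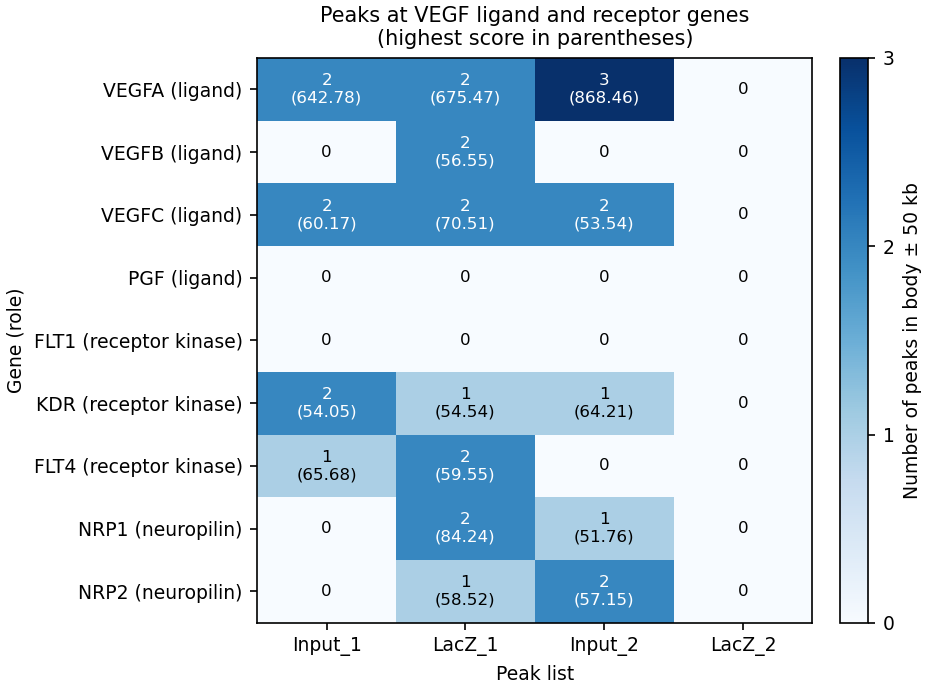
Number of peaks in the body and 50 kb flanks of each of the 9 genes (rows, with their role) in each of the 4 lists (columns), shown as the number and by the depth of blue, with the highest score in parentheses. VEGFA and VEGFC have peaks in the first 3 lists, as does KDR, and the column of LacZ_2 is 0 throughout.

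The overlap between the replicates lay mostly in VEGFA. Against Input, 3 genes (VEGFA, VEGFC and KDR) had a peak in the window in both replicates, beside 17.4% of all protein-coding genes, and 6 had one in either replicate, beside 56.8%. Against LacZ none of the 9 had a peak in both replicates, beside 1.67%, and 7 had one in either, beside 46.1%. Among the 7 entries of Input_1, 3 shared bases with an entry of Input_2, and 3 of the 9 in Input_2 did so in turn, beside the 1.73% and 0.936% of all peaks given above. Those in the VEGFA body were parts of the same block, which chose the family by its score and width, so these shares describe the choice. Outside the VEGFA body, 1 of 5 and 1 of 7 did, namely the 26 bp overlap upstream of VEGFC. None of the 12 peaks in LacZ_1 overlapped a peak of LacZ_2.

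Within replicate 1, 5 of the 7 peaks against Input were also called against LacZ, beside 50.3% of all peaks of that list. In the other direction 5 of the 12 peaks against LacZ were also called against Input, beside 45.6%. These lists share the pull-down library. The intervals in common were the wide one in VEGFA, both of VEGFC, the downstream one of KDR and the upstream one of FLT4.

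The 23 entries outside the VEGFA body had scores of 51.22 to 84.24 and widths of 236 to 616 bp. All of them lay below the score of 100 that the VEGFA peaks, chosen by their score, exceeded in every list where they were called. That score was rare among all peaks, with 222 of 9331 in Input_1, 212 of 10310 in LacZ_1 and 278 of 16777 in Input_2. Of the 23 distinct intervals, 5 overlapped an exon (4 in VEGFA and 1 in VEGFB), 8 were intronic, 5 lay upstream and 5 downstream. The 4 in VEGFA were overlapping parts of the same block, broken at different places in the replicates. Of all peaks in Input_1, LacZ_1 and Input_2, 6.53%, 10.6% and 7.84% overlapped an exon of any gene. A gene body was overlapped by 60.9%, 65.3% and 60.6% of them. The entries nearest to the edge of the 50 kb window on the inside were those upstream of FLT4 (43.95 kb from the body) and downstream of NRP2 (43.98 kb, score 56.59). The nearest on the outside was an Input_2 peak at 55026814-55027230 downstream of KDR (51.25 kb, score 59.09).

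The peaks in the VEGFA body were rich in G and C, at 58.5% to 60.2%, in a window of 50.3% and beside list medians of 37.96% to 41.28%, while the peaks in its flanks had 37.8% (LacZ_1) and 39.5% (Input_2). The peaks of VEGFC were at the other end, with 31.0% to 35.6% in a window of 36.4%, the least GC-rich of the 9 windows. The KDR peak of replicate 2 had 60.2% in a window of 39.8%. Without the VEGFA body the median GC content of the peaks at the family was 36.5% (Input_1), 43.4% (LacZ_1) and 39.5% (Input_2), near the medians of 37.96%, 41.28% and 38.81% of all peaks. Whether base composition had a part in which regions were called was not tested.

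A run of 6 C was searched on both strands (CCCCCC or GGGGGG) in the central 300 bases of each peak, since hnRNPK, an RNA-binding protein that the study examined beside CRLM1, is known to bind C-rich stretches. Of the 23 distinct intervals 3 held it, the 2366 bp interval of VEGFA, the upstream KDR peak of replicate 1 and the KDR peak of replicate 2 that is printed above. By list, 2 of 7, 1 of 12 and 1 of 9 entries held it, beside 3.18%, 4.83% and 3.59% of all peaks. The same VEGFA interval is counted in Input_1 and in LacZ_1, and the difference from all peaks was not tested. The central 300 bases are a small part of the wide VEGFA peaks. A run of 6 C before VEGFA exon 6, in the stretch printed above, lies outside them. In the RefSeq promoter table (GRCh38.p14, 250 bases before to 50 after the start), 6 of the 9 genes were present. Of these 6, 2 (VEGFB and VEGFC) held the run, beside 6615 of 35116 promoters (18.8%), and no peak overlapped any of the 6 promoter windows. The promoters of VEGFA, FLT4 and NRP1 were not analysed here.

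Other genes of VEGF biology were counted by the same window to see how the family compares with its surroundings. They were 42 genes, the regulators of VEGFA expression, the semaphorin ligands of neuropilins and their plexin receptors, the intracellular transducers, the kin ligands and receptors and other endothelial signals. Of these, 15, 20, 22 and 1 had a peak in the order of the lists (35.7%, 47.6%, 52.4% and 2.38%), against the shares of all protein-coding genes of 26.3%, 45.2%, 48.0% and 2.56% given above. In any list 28 of the 42 had a peak, beside 69.7% of all protein-coding genes, and 12 had one in both replicates against Input, beside 17.4%. These shares take no account of gene length, although long genes take more peaks. SEMA3A and PLXNA4, the longest of the 42 with bodies of 537 kb and 525 kb, were among those called in both replicates. At none of the 42 did a peak of replicate 1 overlap a peak of replicate 2 under either control. None reached a score of 100, as 222 of 9331, 212 of 10310, 278 of 16777 and 2 of 363 of all peaks did. Each peak of the VEGFA block exceeded it, but VEGFA was chosen by its score.

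By group, the 6 regulators of VEGFA expression had a peak at 3, 3, 3 and 1 genes, and the 12 semaphorin and plexin genes at 5, 6, 7 and 0. The 8 transducers had a peak at 2, 3, 7 and 0 genes, the 10 kin ligands and receptors at 3, 5, 2 and 0, and the 6 other endothelial genes at 2, 3, 3 and 0. Of the 7 transducers in Input_2, 3 had a peak in the body. All these counts stand beside 26.3%, 45.2%, 48.0% and 2.56% of all protein-coding genes, take no account of gene length and were not tested. The following genes were named after their values were seen. The highest scores of the 42 genes were those at HIF1A in replicate 1, which encodes the oxygen-regulated factor that induces VEGFA, with 93.42 in Input_1 and 92.03 in LacZ_1, beside 84.52 in Input_2. In Input_2, PDGFC (88.69), a platelet-derived growth factor, NCK1 (87.77), an adaptor of receptor kinases, and PLXNA4 (85.55), a semaphorin receptor, scored above HIF1A. VEGFD had no peak in any list. The single gene with a peak in LacZ_2 was EPAS1, which encodes a second hypoxia-inducible factor, with a peak on chromosome 2 at 46414664-46415245 (582 bp, score 54.98), 28.0 kb downstream of the gene, that scored 65.1 in Input_2 and had no overlapping peak in replicate 1.

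The pattern of VEGFA over the lists, present in Input_1, LacZ_1 and Input_2 but absent from LacZ_2, was found for 41 regions in all, which overlapped 19 protein-coding genes. Absence from LacZ_2 was the rule, since 6 of all 10310 peaks of LacZ_1 overlapped a peak of that list. As VEGFA was chosen by its score, its rank among these regions describes the choice. Ranked by the lowest of the 3 scores, VEGFA came first with 642.78. It was followed by GH1, the growth hormone gene, with ENSG00000285947 at the same region (803.0, 129.86 and 1164.51 in Input_1, LacZ_1 and Input_2). TPRG1 came next (80.68, 85.27 and 87.01), then TTC14 and CCDC39, which share 1 region (87.65, 97.83 and 68.78). The likeness is that of being called in the same 3 lists, and 2 of these 3 share a pull-down library.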

How the data were processed

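ChIRP-seq was performed by the authors in HCT116 cells with probes against CRLM1 or LacZ, beside Input, in 2 replicates each. Per the study's methods, the authors trimmed adaptors with cutadapt, aligned reads to GRCh38 with Bowtie2, called CRLM1_IP and LacZ peaks against Input and kept CRLM1_IP peaks that did not overlap LacZ peaks. The deposited lists, by their names in the labels, hold peaks of each CRLM1_IP replicate against the Input or the LacZ library of its number, and the methods do not describe calling against LacZ. The deposited lists give the position and a score for each peak, named here as the caller's score of unstated scale. The methods name MACS2 with a q-value threshold, while the peak names and columns are those of an older release, so version and threshold are not settled, and the depth is unknown.

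Groups came from the sample titles and peak positions were converted to start from 1. Peaks on chromosomes 1 to 22, X and Y were intersected (at least 1 bp) with GENCODE release 44 using Python 3.11.15, numpy 2.4.6 and pandas 2.3.3, and the procedure was checked on simulated peaks. Exon and intron numbers are those of the canonical transcript. Densities are per Mb of 2937.64 Mb of ungapped sequence. The sequences of chromatin regions come from the GRCh38 reference, those of probes from the study's probe table and the promoter windows from RefSeq.

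The genes, the list of 42 other genes and the windows were chosen with earlier results of these data known. All 9 genes were described, with positions for peaks called in more than 1 list, with a score of at least 100, in an exon or within 5 kb upstream, or otherwise the strongest of each gene, and the remaining peaks were added. No test was run, since each list rests on 1 pull-down and 1 control. Alternative windows (body, 5 kb upstream, 100 kb), score thresholds, overlap rules, the canonical transcript alone and the omission of VEGFA or of a replicate were tried.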

Additional observations from a re-analysis of the deposited data

How the results depend on the processing

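The numbers of genes with a peak, the density ratios, the peaks shared between replicates and the VEGFA exons touched were recomputed under other settings. These were windows, score thresholds, overlap rules, the canonical transcript alone, and the omission of VEGFA or a replicate. Of 58 recomputed values, 38 stayed within 1.5 times of the value given above, leaving out the 15 whose value above is 0. The VEGFA exons touched were 3, 2 and 3 on the canonical transcript in place of 9, 6 and 9. In Input_1, 2 of the 9 genes had a peak when the body only, or the body and 5 kb upstream, was used in place of the 50 kb flanks, where 4 had one with them. With scores of at least 60, the density ratio of Input_1 was 2.27 in place of 1.37. Both Input_1 peaks in the VEGFA body passed that threshold, VEGFA was chosen by its score, and the ratio without VEGFA was not computed there. At the same threshold, 3 genes in place of 7 had a peak in LacZ_1, and 2 in place of 5 in Input_2. With scores at or above the list median, 2 genes had a peak in Input_2, and the density ratio there was 0.647 in place of 0.979. When an overlap of 50% of both peaks was required, 1 peak of Input_1 overlapped one of Input_2 in place of 3. For the 42 other genes, scores at or above the list median left 9 in place of 15 with a peak in Input_1, 13 in place of 20 in LacZ_1, 11 in place of 22 in Input_2 and 0 in place of 1 in LacZ_2. The body only, or the body and 5 kb upstream, left 12 and 13 of them in Input_2 and 0 in LacZ_2, where the peak at EPAS1 lies outside the gene. Against LacZ, the number of genes of the family with a peak in either replicate ranged from 0 without replicate 1 to 7 without replicate 2. A narrower window, a higher threshold or a stricter overlap can only lower such a count, for any set of genes. The share of all protein-coding genes under these thresholds was not computed. The fall to 0 against LacZ follows from LacZ_2, which had no peak at the 9 genes. The cause of the shifts in density ratio was not tested. No gene of the 9 had a peak in LacZ_2 under any window or threshold tried, including 100 kb on either side, in a list of 363 peaks. No paired analysis was possible because the results come from peak lists without a test. Read depth is unknown, so a missing peak does not show that a region was not captured.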
